A study of Homo sapiens and Mus musculus with 27 samples.

Results

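The genes described here are NFE2L1 and 9 genes whose products process its protein or act in the endoplasmic reticulum-associated degradation (ERAD) that releases it: DDI2, NGLY1, SYVN1, SEL1L, EDEM1, DERL1, DERL2, VCP and UFD1. They were picked by name for their known function, with earlier results of these data known. The set is 10 of the 78932 features in the human tables and 10 mouse orthologs of the 25239 features in the mouse table. All 10 passed the filter on low counts in each of the 3 datasets. RNA was sequenced from 27 libraries in 9 groups of 3 replicates. The human breast cancer line HCC1937 received 10 µM AMD3100, 10 µM TM or vehicle. The human breast cancer line MDA-MB-231 received 10 nM bortezomib with 10 µM AMD3100, 10 nM bortezomib with 10 µM TM, or vehicle. Tumours of the mouse mammary line 4T1 grew in Balb/c mice that received 1 mg/kg bortezomib every 4 days with 5 mg/kg AMD3100 every 2 days, the same bortezomib with TM drunk in water at 0.05 mg/ml, or vehicle. Bortezomib blocks the chymotrypsin-like site of the proteasome, and AMD3100 is an antagonist of the chemokine receptor CXCR4. TM is not expanded in the labels. There was no arm with bortezomib as the single agent, so its part and that of its partner cannot be told apart. The sources used here give neither the age nor the sex of the mice, nor whether tumours were pooled.

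NFE2L1 (also called NRF1 or TCF11) encodes a transcription factor that is made as an ER membrane glycoprotein and is normally destroyed by ERAD. The HRD1 ligase (SYVN1), its cofactor SEL1L and the VCP ATPase with UFD1 carry it out of the membrane to the proteasome. When the proteasome is blocked, the extracted protein escapes: NGLY1 removes its N-glycans, the protease DDI2 cuts it, and the fragment enters the nucleus with small MAF partners to transcribe proteasome subunit genes. This is known as the bounce-back response, and RNA counts do not show the cleavage itself.

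Total counts per library were 35981504 to 50735374, and the lowest count behind a value of the 10 genes was 113 (DDI2 in 1 MDA-MB-231 library). Levels are CPM (counts scaled to library size, with TMM factors), given as means ± SD over 3 libraries. A gene passed the test at an adjusted p under 0.05 (edgeR quasi-likelihood test, Benjamini-Hochberg over all tested genes). Titles call the replicates biological, but nothing states separate cultures or mice, so a p-value covers only the spread among these libraries. One library stood apart. AMD3100 replicate 1 of HCC1937 had 19.9% mitochondrial counts (10.5% to 11.6% in the line's 8 others) and 20639 features with a count (29335 to 31770 in the others). HCC1937 results are therefore given with and without it. Of the breast epithelial markers, the HCC1937 libraries had KRT8, KRT18 and CDH1, while EPCAM or KRT19 was under 0.1 CPM in 6 of the 9. CDH1 was under 0.1 CPM in 8 of 9 MDA-MB-231 libraries, and so was the mesenchymal marker CDH2, also in 8 of 9. Summed epithelial markers came to 516 to 797 CPM in that line. Its summed mesenchymal markers (VIM, ZEB1, CDH2, FN1 and SPARC) came to 957 to 1076 CPM. In HCC1937 the epithelial sum was 1872 to 2524 CPM. The mesenchymal sum was 850 CPM in AMD3100 replicate 1 of HCC1937 and 302 to 404 CPM in the line's 8 others.

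The sequence before the transcription start was searched because NFE2L1 binds antioxidant response elements (ARE) and because ER stress factors act through their own elements. Both strands of the 250 bases upstream were searched in RefSeq promoters (GRCh38.p14), for the ARE core TGACNNNGC and for 3 ER stress elements, the UPRE core TGACGTGG, the ERSE and the ERSE-II. The table held 10 windows for 8 of the 10 genes. UFD1 and DERL1 had no entry. VCP is shown because it is the most abundant of the 10 genes and holds 2 of the motifs (chr9:35072626-35072875, minus strand), SEL1L because it holds the only other match (chr14:81533854-81534103, minus strand), and DERL2 as a gene that rose without a match (chr17:5486179-5486428, minus strand). Capitals mark the match, and each sequence runs 5′ to 3′ on the strand of the gene and ends at the base before the start.
VCP: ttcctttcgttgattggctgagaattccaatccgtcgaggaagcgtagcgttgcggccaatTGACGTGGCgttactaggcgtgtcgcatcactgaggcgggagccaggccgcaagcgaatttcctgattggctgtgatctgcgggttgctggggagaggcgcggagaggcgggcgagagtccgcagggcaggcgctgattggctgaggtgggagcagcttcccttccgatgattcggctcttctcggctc
SEL1L: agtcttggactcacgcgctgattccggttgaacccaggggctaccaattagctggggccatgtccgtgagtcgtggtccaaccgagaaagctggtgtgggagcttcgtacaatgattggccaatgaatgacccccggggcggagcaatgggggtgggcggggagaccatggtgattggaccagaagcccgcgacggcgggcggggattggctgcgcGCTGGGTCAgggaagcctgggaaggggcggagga
DERL2: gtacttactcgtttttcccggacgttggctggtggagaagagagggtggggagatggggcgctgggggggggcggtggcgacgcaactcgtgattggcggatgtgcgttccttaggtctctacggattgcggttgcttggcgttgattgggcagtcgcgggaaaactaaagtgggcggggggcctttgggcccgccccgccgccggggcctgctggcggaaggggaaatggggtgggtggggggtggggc
In VCP the letters TGACGTGGC lie 189 to 181 bases upstream. They match the ARE core, and their first 8 letters are also the UPRE core, so the pair is 1 overlapping stretch. In SEL1L the ARE core is on the opposite strand, at 34 to 26 bases upstream, and reads GCTGGGTCA on the printed strand. NFE2L1, DDI2, NGLY1, SYVN1, EDEM1 and DERL2 held none of the 4 motifs in these windows. Among all 35116 promoter windows of this length 10.9% held the ARE core, 0.612% the UPRE core, 0.074% the ERSE and 0.0513% the ERSE-II. Of 37 windows of 26S proteasome subunit genes, 8 held the ARE core and 0 the UPRE core. A match describes letters and shows no binding.

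Per length and by group means, VCP was the most abundant of the 10 genes in all 6 human groups, NFE2L1 the next and DDI2 the least. In vehicle MDA-MB-231 cells VCP averaged 84.5 ± 6.81 RPKM (CPM per kilobase of the deposited gene length), NFE2L1 48.5 ± 6.72 RPKM and DDI2 0.702 ± 0.247 RPKM (SD, n = 3 each). In vehicle HCC1937 cells the values were 42.5 ± 1.07 RPKM for VCP, 16.5 ± 0.717 RPKM for NFE2L1 and 2.25 ± 0.108 RPKM for DDI2, which lay within the spread of SEL1L (2.37 ± 0.216 RPKM). The deposited length of VCP is 10042 bases, while its exons in GENCODE 29 cover 5438 bases, so its RPKM would be higher on that annotation. Under vehicle in MDA-MB-231 UFD1 (5.83 ± 0.305 RPKM) was the seventh of the 10, behind SYVN1 (10.5 ± 0.962 RPKM), DERL1 (9.29 ± 0.479 RPKM), DERL2 (8.38 ± 0.910 RPKM) and EDEM1 (7.13 ± 1.33 RPKM). Under bortezomib it was the third, at 23.7 ± 0.237 RPKM with AMD3100 and 25.04 ± 0.872 RPKM with TM. DERL1 (16.8 ± 1.27 RPKM) and DERL2 (16.5 ± 1.52 RPKM) came next with AMD3100 and lay within their spread of each other. NFE2L1 over the groups was highest in MDA-MB-231 under bortezomib, at 466 ± 48.5 CPM with AMD3100 and 466 ± 26.2 CPM with TM, and next in vehicle MDA-MB-231 cells at 285 ± 39.6 CPM. HCC1937 cells had 130.4 ± 1.09 CPM under TM, 93.9 ± 27.3 CPM under AMD3100 and 97.0 ± 4.203 CPM under vehicle. The treated groups of MDA-MB-231 did not differ beyond their spread. Nor did the AMD3100 and vehicle groups of HCC1937, although without AMD3100 replicate 1 (62.5 CPM) NFE2L1 was higher under AMD3100 (log2 change 0.20, adjusted p = 0.0197). The 2 human tables were scaled separately, so the order between lines is a description only.

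**Figure D1:**
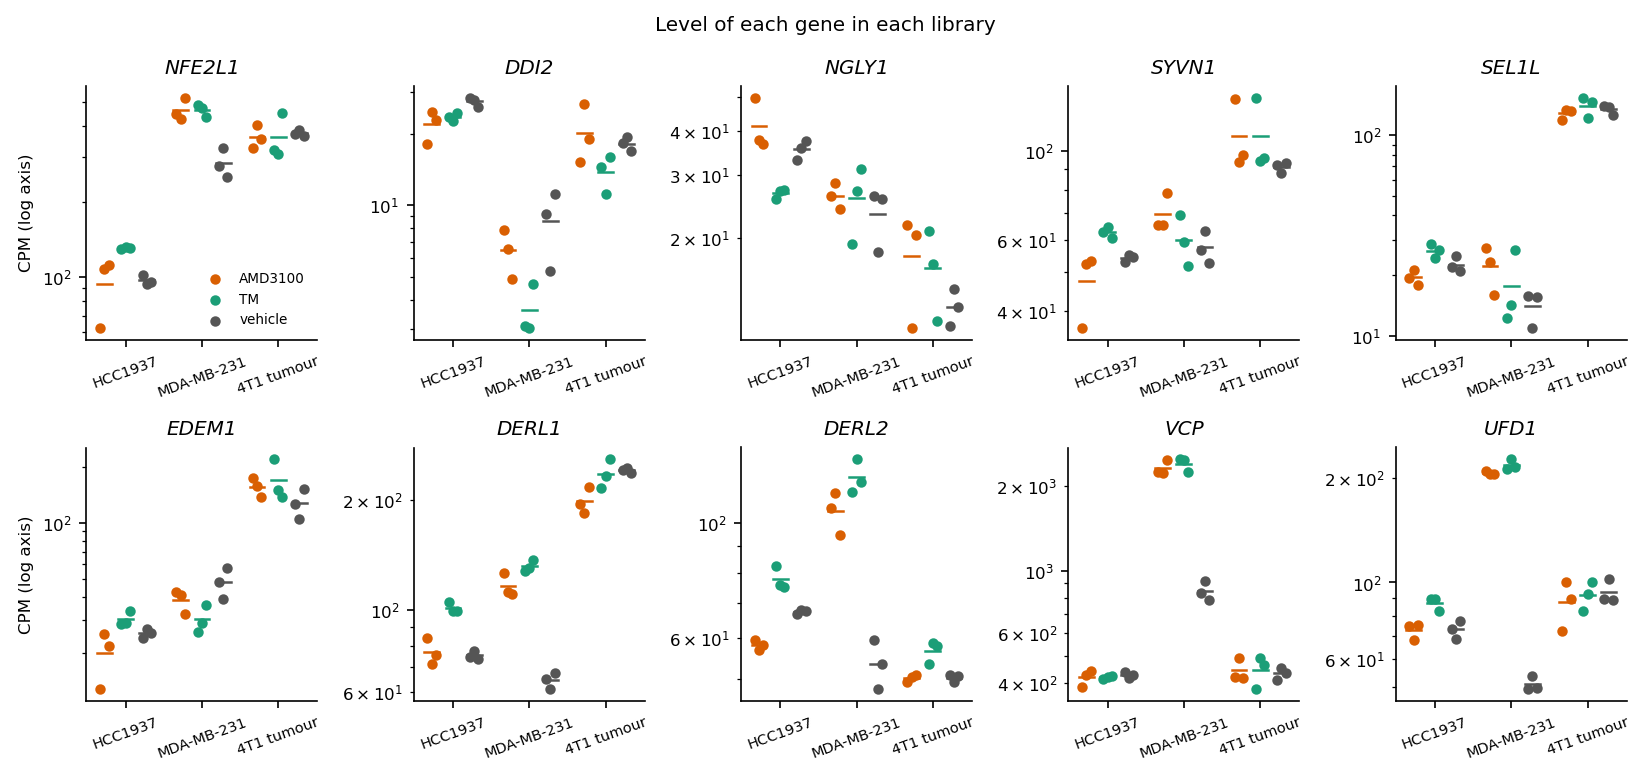
Level of each of the 10 genes in every library, in CPM on a log axis, for HCC1937, MDA-MB-231 and 4T1 (mouse orthologs), with AMD3100 left, TM in the middle and vehicle right in each dataset; points are libraries and bars are means of 3. In MDA-MB-231 all treated libraries of NFE2L1, VCP, UFD1, DERL1 and DERL2 lie above all vehicle libraries, while in 4T1 treated and vehicle libraries of most genes overlap.

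In MDA-MB-231, bortezomib with either partner raised NFE2L1 itself, the segregase pair VCP and UFD1 and both derlins. Of the 10 genes, NGLY1 and DDI2 act on the extracted protein, and neither passed as higher. NGLY1 passed in neither arm and DDI2 was lower in the TM arm. With AMD3100, 5 of the 10 genes rose and 0 fell, where 46.5% of 16498 tested genes passed in either direction, 22.3% rising and 24.2% falling. With TM, 5 rose and 2 fell, where 51.7% of tested genes passed, 24.1% rising and 27.6% falling. Counted in both directions, the number of the 10 genes that passed was thus near the background share with AMD3100 (5) and somewhat above it with TM (7). The rising share was above its background in both arms and the falling share below. The genes were picked by name with earlier results of these data known, so these shares are a description only. Whether the genes differ as a set was not tested. By library, 7 of the 10 lay wholly above vehicle with AMD3100 (26.8% of genes did) and 0 wholly below (31.1%), and with TM 5 lay above (26.3%) and 2 below (32.1%). It is the size and direction for single genes that the data give. Over all 10 genes the median log2 change was 0.68 with AMD3100 and 0.52 with TM, beside -0.05 and -0.09 over all tested genes. The arms share their 3 vehicle libraries, so a like result in both is not independent.

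NFE2L1, the factor at the head of the pathway (ENSG00000082641, chr17:48048329-48061487, plus strand, GRCh38), had 449, 429 and 521 CPM under bortezomib with AMD3100, 488, 474 and 437 CPM under bortezomib with TM, and 278, 328 and 250.1 CPM under vehicle. Every treated library was above every vehicle library. The log2 change was 0.71 with AMD3100 (SE 0.12, adjusted p = 0.000401) and 0.71 with TM (SE 0.12, adjusted p = 0.000334). NGLY1, the N-glycanase, had 26.3, 28.5 and 24.04 CPM with AMD3100, 19.2, 27.1 and 31.3 CPM with TM, and 26.2, 18.3 and 25.7 CPM under vehicle. These groups overlapped, and the changes of 0.17 (95% interval -0.26 to 0.59) and 0.14 (-0.28 to 0.57) did not pass. DDI2, the aspartyl protease that cuts NFE2L1 (ENSG00000197312, chr1:15617500-15669044, plus strand), had 7.88, 6.55 and 4.90 CPM with AMD3100, 3.10, 3.03 and 4.66 CPM with TM, and 9.15, 5.29 and 11.2 CPM under vehicle. The TM libraries were all below the vehicle libraries and the AMD3100 libraries overlapped them. DDI2 fell by 1.25 on the log2 scale with TM (SE 0.29, adjusted p = 0.00393), while its change of -0.41 with AMD3100 (interval -1.04 to 0.22) did not pass. DDI2 shares 15.3% of its exon bases with RSC1A1 on the same strand, so part of its reads cannot be assigned with certainty.

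VCP, the ATPase that pulls ubiquitinated proteins out of the membrane (ENSG00000165280, chr9:35056064-35073249, minus strand), had 2227, 2219 and 2463 CPM with AMD3100, 2483, 2468 and 2229 CPM with TM, and 835, 922 and 787 CPM under vehicle. It rose by 1.44 (SE 0.10, adjusted p = 5.16e-07) with AMD3100 and by 1.497 (SE 0.10, adjusted p = 3.09e-07) with TM. UFD1, the VCP adaptor that binds ubiquitin chains (ENSG00000070010, chr22:19449910-19479215, minus strand), had 209, 205 and 205 CPM with AMD3100, 212, 227 and 216 CPM with TM, and 49.1, 53.9 and 49.5 CPM under vehicle. The treated libraries were far above vehicle with no overlap, and of the 10 genes UFD1 had the greatest log2 change in both arms, 2.02 (SE 0.09, adjusted p = 2.06e-08) with AMD3100 and 2.10 (SE 0.09, adjusted p = 1.11e-08) with TM. NPLOC4, the partner of UFD1 in the same heterodimer, rose by 1.18 (adjusted p = 6.23e-06) and 1.203 (adjusted p = 4.35e-06).

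The ER side of the machinery was mixed. DERL1, a derlin of the retrotranslocation channel, had 127, 112 and 111 CPM with AMD3100, 128, 131 and 137 CPM with TM, and 65.3, 61.0 and 67.5 CPM under vehicle. DERL2, its paralog, had 107, 114 and 94.7 CPM with AMD3100, 115, 133 and 119.5 CPM with TM, and 59.4, 47.8 and 53.4 CPM under vehicle. Neither derlin overlapped vehicle in either arm. DERL1 rose by 0.85 (SE 0.10, adjusted p = 2.33e-05) with AMD3100 and by 1.03 (SE 0.10, adjusted p = 4.40e-06) with TM, and DERL2 by 0.97 (SE 0.12, adjusted p = 3.43e-05) and 1.19 (SE 0.12, adjusted p = 6.01e-06). SYVN1, the HRD1 ubiquitin ligase, averaged 69.8 ± 7.46 CPM with AMD3100, 60.1 ± 8.66 CPM with TM and 57.5 ± 5.30 CPM under vehicle. Its log2 changes of 0.28 and 0.06 did not pass, although the lowest AMD3100 library was above the highest vehicle library. SEL1L, the adaptor that stabilises HRD1, had 27.4, 23.3 and 15.9 CPM with AMD3100, 12.3, 14.2 and 26.9 CPM with TM, and 15.9, 10.9 and 15.6 CPM under vehicle. The lowest AMD3100 library (15.9 CPM) was barely above the highest vehicle library (15.86 CPM). Its change of 0.65 had an adjusted p of 0.0883, and it passed in 6 alternative fits. EDEM1, a mannosidase-like lectin that marks glycoproteins for ERAD, had 42.5, 40.7 and 32.4 CPM with AMD3100, 25.99, 29.05 and 36.15 CPM with TM, and 48.1, 39.1 and 57.0 CPM under vehicle. EDEM1 fell by 0.66 with TM (SE 0.17, adjusted p = 0.00727), and its change of -0.32 with AMD3100 did not pass (interval -0.70 to 0.06).

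TM replicates 1 and 2 of MDA-MB-231 stood apart from the other libraries by transcript length, while TM replicate 3 lay within the range of the AMD3100 libraries. The median centred log2 level of long genes (8348 bases or more) minus that of short genes (3499 bases or less) was -0.38, -0.42 and -0.004 in the TM libraries, 0.08, 0.07 and -0.08 in the AMD3100 libraries, and 0.25, 0.09 and 0.33 in the vehicle libraries. DDI2, with a deposited length of 12178 bases, is the longest of the 10 genes. With a correction for length, DDI2 in the TM arm changed by -0.95 (adjusted p = 0.00741) and EDEM1 by -0.61 (adjusted p = 0.00398), so both still passed. VCP then changed by 1.75 and UFD1 by 2.24 in the TM arm. In HCC1937 the same measure (8499 bases or more minus 3524 bases or less) was 0.47 in AMD3100 replicate 1. It was -0.15 to 0.009 in the other libraries of HCC1937, so AMD3100 replicate 1 stood apart by length too.

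**Figure D2:**
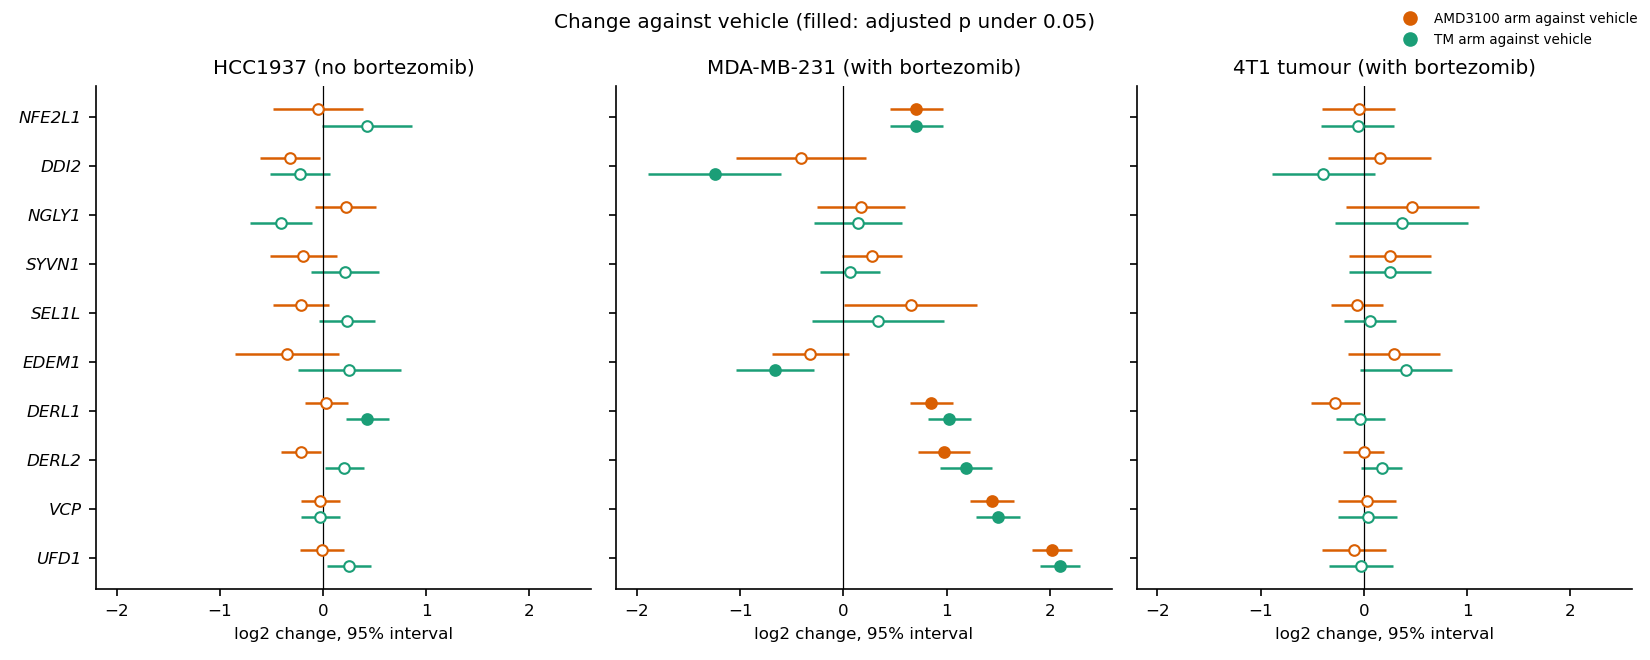
Log2 change against vehicle of each of the 10 genes with its 95% interval, for AMD3100 arms (orange) and TM arms (green) in HCC1937, MDA-MB-231 and 4T1; filled points passed at an adjusted p under 0.05. UFD1 at about 2 and VCP at about 1.5 lead in MDA-MB-231, DERL1 under TM is the single filled point in HCC1937, and 4T1 has none.

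Around the 10 genes, lists of the same machinery moved in part. Of 33 subunits of the 26S proteasome, the gene set that NFE2L1 is known to transcribe, 31 rose with AMD3100 (median log2 change 1.37) and 31 with TM (median 1.43), and 0 fell in either arm. PSMC4, an ATPase of the regulatory particle, reached 1142 ± 55.4 CPM with AMD3100 and 1197 ± 83.1 CPM with TM, against 200.1 ± 21.99 CPM under vehicle. PSMB7, a catalytic core subunit, rose by 1.82 and 2.06. PSMA2 (log2 change 0.10 and 0.60, on means of 0.249 and 0.349 CPM, against 0.232 CPM) and PSMD7 (-0.18 and -0.10) were the 2 subunits that did not pass, named after their values were seen. Among 13 tested genes of the NFE2L1 family, its partners and its turnover, 9 rose and 2 fell with AMD3100, and 6 rose and 2 fell with TM. The small MAF partner MAFF had 380 ± 30.5 CPM with AMD3100 and 443 ± 51.7 CPM with TM, against 40.0 ± 6.14 CPM under vehicle, and MAFG had 417 ± 34.9 and 422 ± 12.9 CPM, against 116 ± 13.4 CPM. The 2 that fell in both arms were NFE2L3, a close relative of NFE2L1 (-1.47 and -1.49), and HCFC1, a chromatin cofactor (-0.56 and -1.05), again named after their values were seen.

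Of the 12 other subunits of the HRD1 complex, 6 rose and 2 fell with AMD3100 and 7 rose and 2 fell with TM. HERPUD1, an ER-stress-induced scaffold of the complex, had 657.5 ± 38.0 CPM with AMD3100 and 641 ± 70.6 CPM with TM, against 60.7 ± 5.95 CPM under vehicle (log2 3.44 and 3.40). SELENOS, which tethers VCP to the ER, rose by 1.62 and 1.80. Of 12 lumenal ERAD factors 4 rose and 3 fell in each arm, with medians of 0.035 with AMD3100 and -0.13 with TM, so the share that passed was near that of all tested genes (46.5% and 51.7%). DNAJB9, an HSP70 cochaperone, rose by 3.745 and 3.805, and SDF2L1 by 1.59 and 1.80. Of 10 other ER ubiquitin ligase genes, 4 rose and 2 fell with AMD3100 and 7 rose and 1 fell with TM. RNF185, one of these ligases, rose by 0.73 and 0.95. Of 20 VCP cofactors and shuttle factors, 13 rose and 2 fell with AMD3100 and 10 rose and 4 fell with TM. NSFL1C (p47) rose by 1.85 and 2.03. The UPR sensors and ER chaperones had 6 of 9 rising and 0 falling in each arm, with HSPA5 (BiP) at 4722 ± 408 CPM with AMD3100 and 4493 ± 472 CPM with TM, against 511 ± 46.9 CPM under vehicle. XBP1, the transcription factor of the IRE1 branch, rose by 1.45 and 1.58.

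**Figure D3:**
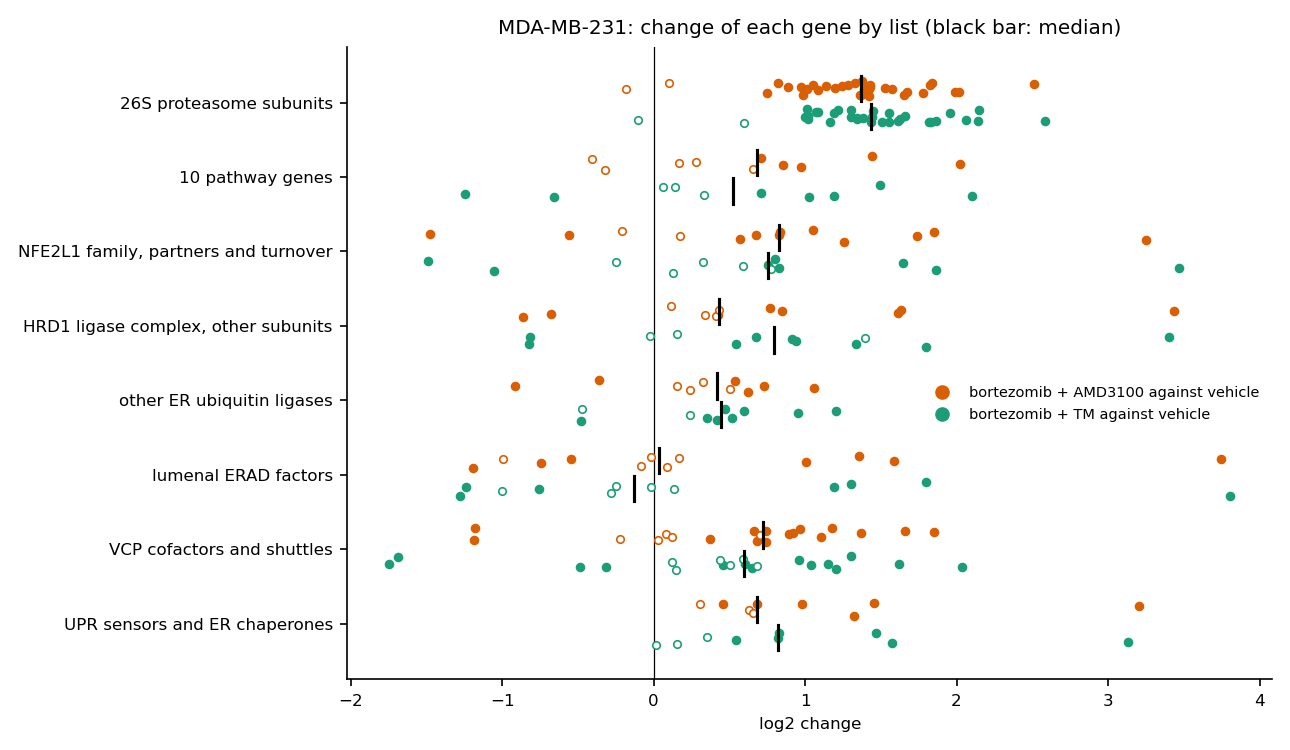
Log2 change against vehicle in MDA-MB-231 of every tested gene in 8 lists, with bortezomib + AMD3100 (orange) above bortezomib + TM (green); filled points passed at an adjusted p under 0.05 and black bars are medians. The 26S proteasome subunits cluster around 1.4 in both arms, while lumenal ERAD factors spread to both sides of 0.

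Set against each other, the AMD3100 and TM arms of MDA-MB-231 gave 0 of the 10 genes and 0% of 16498 genes at an adjusted p under 0.05 by edgeR (1464 genes at an unadjusted p under 0.05, and 70 genes by DESeq2). DDI2, at 6.44 ± 1.49 CPM with AMD3100 and 3.598 ± 0.923 CPM with TM, was the 1 gene of the 10 with an unadjusted p under 0.05 (log2 difference 0.84, interval 0.19 to 1.48, adjusted p = 0.480). For NFE2L1 the interval of the difference was -0.25 to 0.25, for VCP -0.26 to 0.15 and for UFD1 -0.27 to 0.11. In DDI2 the AMD3100 libraries lay wholly above the TM libraries (6.85% of genes did), and in DERL1, DERL2 and UFD1 wholly below (6.56%).

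HCC1937 cells received TM without bortezomib. All 9 libraries together, set against vehicle, gave DERL1 as the 1 gene of 10 that passed, where 7.07% of 19461 tested genes passed, 2.96% rising and 4.11% falling. By library, 6 lay wholly above vehicle (25.2% of genes did) and 2, DDI2 and NGLY1, wholly below (26.4%). DERL1 had 105, 99.9 and 99.9 CPM under TM, against 74.9, 77.5 and 73.9 CPM under vehicle. The groups did not overlap, and the log2 change was 0.43 (SE 0.09, adjusted p = 0.0273). It no longer passed when any 1 of the 6 compared libraries was left out (adjusted p up to 0.144, change 0.39 to 0.43 over these fits). NFE2L1 had 129, 131 and 131 CPM under TM, against 102, 93.9 and 95.2 CPM under vehicle, with no overlap and a change of 0.43 that did not pass (interval -0.01 to 0.86, adjusted p = 0.258).

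Without AMD3100 replicate 1, which is no part of this comparison but shares its estimate of spread, 7 of the 10 genes rose under TM and 2 fell, where 40.8% of 20398 genes passed, 19.4% rising and 21.4% falling. The estimates themselves hardly moved. NFE2L1 then changed by 0.43 (SE 0.05, adjusted p = 1.96e-08), DERL1 by 0.43 (SE 0.05, adjusted p = 5.34e-08), and SYVN1, SEL1L, EDEM1, DERL2 and UFD1 by 0.21 to 0.26. NGLY1 fell by 0.41 (SE 0.07, adjusted p = 1.78e-05) and DDI2 by 0.22 (SE 0.07, adjusted p = 0.0173). NGLY1 had 25.7, 27.2 and 27.3 CPM under TM, against 33.05, 35.9 and 37.5 CPM under vehicle. VCP did not pass in this fit either, with 414, 421 and 422 CPM under TM, against 438, 417 and 425 CPM under vehicle (log2 change -0.03). Of the related lists, TM with all 9 libraries gave HERPUD1 at 207 ± 4.16 CPM, against 142 ± 2.26 CPM under vehicle (adjusted p = 0.00540), and MAFF at 32.7 ± 0.230 CPM, against 8.08 ± 1.56 CPM (adjusted p = 0.00806). MAFG, named after its value was seen, rose as well (log2 change 0.61). Of the 14 tested genes of the NFE2L1 family, its partners and its turnover, 2 rose and 1 fell with all 9 libraries. Of the 33 proteasome subunits 0 rose and 1 fell with all 9 libraries, at a median of 0.063, and 15 rose and 4 fell without AMD3100 replicate 1. Without that library the family and partner genes had 5 rising and 5 falling of 14, the HRD1 subunits 4 and 1 of 12, the other ligases 6 and 1 of 10, the lumenal factors 3 and 6 of 12, the VCP cofactors 3 and 6 of 20, and the UPR list 2 and 4 of 9. Elsewhere, with all 9 libraries, 1 gene passed in each of 4 lists: RNF103 rose (0.51), and FOXRED2 (-0.43), UBQLN4 (-0.52) and HSP90B1 (-0.57) fell. PSMD8, chosen after its value was seen, is the 1 that fell with all 9 libraries (-0.70).

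**Figure D4:**
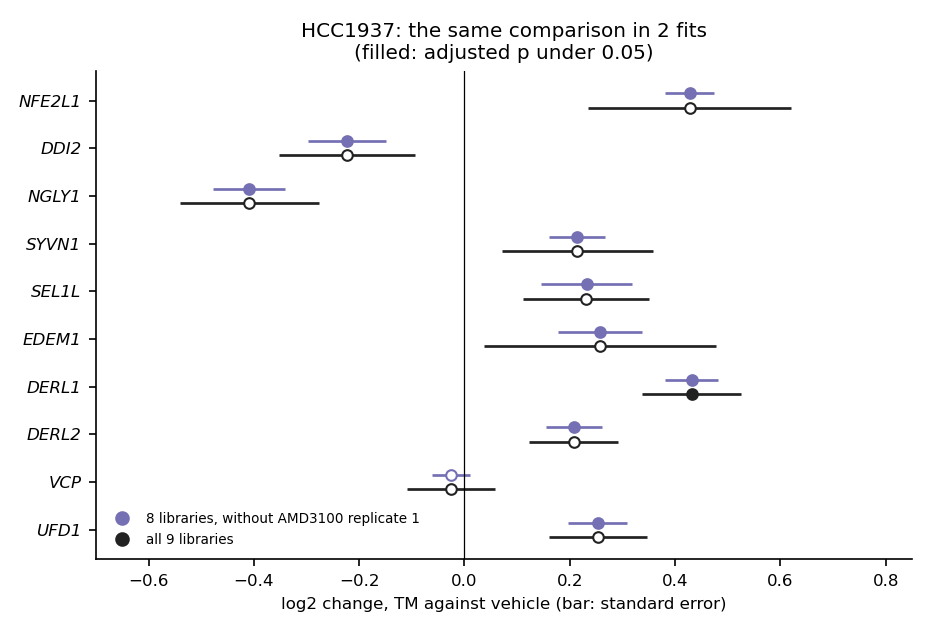
Log2 change of the 10 genes in HCC1937 cells, TM against vehicle, with its standard error, fitted without AMD3100 replicate 1 (purple) and with all 9 libraries (black); filled points passed at an adjusted p under 0.05. The point estimates lie on top of each other, from -0.41 for NGLY1 to 0.43 for DERL1, while the bars are shorter in the fit of 8 libraries, where 9 of 10 genes are filled, against 1 of 10 with all 9.

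AMD3100 alone, against vehicle in HCC1937, gave 0 of the 10 genes and 0% of 19461 genes by edgeR (951 at an unadjusted p under 0.05, and 39 by DESeq2). DDI2 had 18.1, 24.8 and 22.9 CPM under AMD3100, against 28.5, 27.9 and 25.95 CPM under vehicle, and DERL2 had 59.6, 57.0 and 58.2 CPM, against 66.7, 68.1 and 67.5 CPM. Both lay wholly below vehicle (7.15% of genes did), 0 of the 10 lay wholly above (4.2%), and neither log2 change (-0.32 and -0.21) passed (adjusted p = 0.882 for each). NFE2L1 had 62.5, 107 and 112 CPM under AMD3100, the first of these in the library that stood apart, against 102, 93.9 and 95.2 CPM under vehicle. The change of -0.05 with all 9 libraries became 0.20 without that library, where NFE2L1 passed (SE 0.05, adjusted p = 0.0197). DERL2 then passed as well, at -0.21 (adjusted p = 0.0303). Of the other 7 genes none passed with all 9 libraries, and their changes ran from -0.35 (EDEM1) to 0.22 (NGLY1). The 7 related lists had 0 genes past the test with all 9 libraries. Without that library 8.14% of 20398 genes passed, 5.39% rising and 2.76% falling. In that fit 3 of 10 other ER ubiquitin ligase genes rose and 1 fell, 1 of 9 UPR sensors and ER chaperones rose and 3 fell, and 1 of 12 lumenal ERAD factors rose and 1 fell. Of 20 VCP cofactors 2 rose, of 14 genes of the NFE2L1 family and its partners 1 rose, and of the HRD1 subunits and the proteasome subunits 0 passed.

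AMD3100 against TM in HCC1937 gave 1 gene higher and 2 lower of the 10, where 8.22% of genes passed, 4.61% higher and 3.6% lower. NGLY1 was higher, with 49.7, 37.7 and 36.65 CPM under AMD3100, against 25.7, 27.2 and 27.3 CPM under TM (log2 difference 0.63, SE 0.13, adjusted p = 0.0221). DERL1 had 84.35, 71.6 and 75.7 CPM under AMD3100, against 105, 99.9 and 99.9 CPM under TM (-0.40, SE 0.09, adjusted p = 0.0342). DERL2 had 59.6, 57.0 and 58.2 CPM, against 82.6, 75.9 and 75.1 CPM (-0.42, SE 0.08, adjusted p = 0.0192). None of the 3 overlapped between groups. The differences of the other 7 genes with all 9 libraries ran from -0.61 (EDEM1) to -0.0006 (VCP) and did not pass. By library 1 of the 10 lay wholly above TM (14.2% of genes did) and 7 wholly below (19.4%). Over the 6 fits that left out 1 library, NGLY1 was lost in 3, DERL2 in 4 and DERL1 in 5. Without AMD3100 replicate 1, 1 was higher and 7 lower, where 36.5% of genes passed, 19.7% higher and 16.8% lower. NGLY1 then differed by 0.50 and SEL1L by -0.42, and NFE2L1, SYVN1, EDEM1 and UFD1 by -0.35 to -0.23. The related lists went both ways with all 9 libraries. Of 14 family and partner genes 1 was higher and 2 lower, and of 12 lumenal factors 2 were higher and 1 lower. Of 10 other ligases 2 were lower, and of 12 HRD1 subunits 1 was lower. Of 33 proteasome subunits 1 was higher, of 9 UPR genes 1 was higher, and of 20 VCP cofactors 0 passed. Among those lower under AMD3100 were MAFF (-2.10, adjusted p = 0.00733) and HERPUD1 (-0.45, adjusted p = 0.0118).

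In the 4T1 tumours 0 of the 10 orthologs passed in any comparison, and neither did any other of 15846 genes (0% in each). At an unadjusted p under 0.05 there were 1144 genes for AMD3100 against vehicle, 688 for TM against vehicle and 454 for AMD3100 against TM, and DESeq2 gave 17, 3 and 6. The 7 related lists had 0 genes past the test, with medians for the proteasome subunits of -0.099 with AMD3100 and -0.079 with TM. Libraries lay wholly above vehicle for 1 gene with AMD3100 (Syvn1, where 6.02% of genes did) and 2 with TM (Syvn1 and Derl2, 4.96%), and wholly below for 1 with AMD3100 (Derl1, 7.34%) and 1 with TM (Ddi2, 5.01%). AMD3100 against TM had 0 above (3.68%) and 1 below (Derl2, 3.69%). These are bulk tumours, in which fewer cells of a type and less RNA per cell cannot be told apart. Nfe2l1 had 328, 405 and 354 CPM with bortezomib and AMD3100, 320.3, 308.5 and 454 CPM with bortezomib and TM, and 373, 387 and 367 CPM under vehicle. The treated libraries lay on both sides of vehicle, with intervals of the log2 change of -0.40 to 0.30 (AMD3100) and -0.41 to 0.30 (TM). Vcp averaged 443 ± 41.8 and 445 ± 58.1 CPM, against 433 ± 21.2 CPM under vehicle, and Ufd1 87.6 ± 14.3 and 92.0 ± 8.76 CPM, against 93.6 ± 7.78 CPM. The intervals ended at 0.32 for Vcp in both arms, and at 0.21 (AMD3100) and 0.28 (TM) for Ufd1. The MDA-MB-231 changes of 1.44 and above for these genes lay outside them, but species, setting and dose differ and no test joined the datasets.

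Derl1 had 195, 183.5 and 217 CPM with AMD3100, against 241, 244 and 237 CPM under vehicle, with no overlap (log2 change -0.28, unadjusted p = 0.0272, adjusted p = 0.634). Syvn1 had 134, 93.5 and 97.7 CPM with AMD3100, 135, 94.4 and 95.7 CPM with TM, and 91.99, 88.15 and 92.9 CPM under vehicle, with changes of 0.25 in each arm that did not pass. The changes with AMD3100 and with TM were 0.15 and -0.39 for Ddi2, 0.47 and 0.37 for Ngly1, and -0.07 and 0.06 for Sel1l. Edem1 had 174, 157 and 137 CPM with AMD3100, 220.0, 150.1 and 138 CPM with TM, and 127, 105 and 151 CPM under vehicle, overlapping in both arms. Replicate 1 of each treated arm had the highest Syvn1, Edem1 and Ngly1 of its arm. The same 2 libraries had the highest summed B cell markers of their arms, 581.5 CPM with AMD3100 and 395 CPM with TM, where the other treated libraries had 1.64 to 321 CPM and vehicle 1.58 to 97.4 CPM. Summed plasma cell markers were 411 and 916 CPM in those 2 libraries, 174.5 to 284.6 CPM in the other treated ones and 232 to 264 CPM under vehicle. Most of the vehicle sum was Sdc1, at 215.7 ± 19.47 CPM under vehicle, 167.2 ± 24.39 CPM with AMD3100 and 198 ± 76.22 CPM with TM. Jchain, another marker of the list, averaged 21.7 ± 19.66, 85.04 ± 100.7 and 251 ± 389.9 CPM. By these means Sdc1 was lower and Jchain higher in the treated arms, and neither change passed. Endothelial markers were highest in replicate 1 of each treated arm as well, at 316.5 and 344.7 CPM. They were 139 to 221.5 CPM in the other treated libraries and 207 to 295 CPM under vehicle. T cell markers summed to 49.0 to 403 CPM with AMD3100, 45.4 to 253 CPM with TM and 17.2 to 91.1 CPM under vehicle, and epithelial markers to 969.5 to 1247, 1064 to 1915 and 1461 to 2392 CPM. Replicate 1 of each treated arm also had the highest T cell, the highest macrophage (1047 and 1031 CPM) and the lowest epithelial sum of its arm. Its neutrophil sum was the lowest with AMD3100 (38.37 CPM) and the highest with TM (88.66 CPM). Its fibroblast sum was the highest with AMD3100 (4511 CPM) and the lowest with TM (2090 CPM). In replicates 2 and 3 of the treated arms the order was mixed. AMD3100 replicate 3 had 321 CPM of B cell markers and 137 CPM of Edem1, where replicate 2 had 4.23 and 157 CPM. TM replicate 2 had 182 CPM of B cell markers and 94.4 CPM of Syvn1, where replicate 3 had 1.64 and 95.7 CPM. Syvn1 with AMD3100, Edem1 with TM and Ngly1 in both arms had the order of the B cell markers. Nfe2l1, Ddi2, Sel1l and Ufd1 with AMD3100, and Derl1 and Ufd1 with TM, had the reverse order. The remaining genes had neither order, and an order of 3 libraries is a description only. Of 4 tested plasma cell markers 0 passed. Of 5 each of the B cell, T cell, endothelial, epithelial, macrophage, neutrophil and fibroblast markers 0 passed. Tnfrsf17 was under 0.1 CPM in 3 of the 6 treated tumours and in all 3 vehicle tumours. The part of these cells in the values of the 10 genes was not tested.

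The change in MDA-MB-231 was set against that in HCC1937 by an interaction term over the 18 human libraries. Since only MDA-MB-231 received bortezomib, line and bortezomib cannot be told apart. For the AMD3100 arms 5 of the 10 genes differed, all higher in MDA-MB-231, where 19.5% of 21590 genes passed. For the TM arms 6 differed, 4 higher and 2 lower, where 21.6% passed. UFD1 differed by 2.05 (SE 0.14, adjusted p = 1.77e-08) in the AMD3100 arms and 1.90 (SE 0.14, adjusted p = 3.49e-08) in the TM arms. VCP, which showed no change in HCC1937 beyond its spread, differed by 1.49 (SE 0.14) and 1.58 (SE 0.14), DERL2 by 1.2 (SE 0.16) and 1.04 (SE 0.16), and DERL1 by 0.83 (SE 0.14) and 0.65 (SE 0.14). NFE2L1 differed in the AMD3100 arms by 0.78 (SE 0.24, adjusted p = 0.0303) and did not pass in the TM arms (0.34, interval -0.17 to 0.84). DDI2 (-0.98, adjusted p = 0.0468) and EDEM1 (-0.87, adjusted p = 0.0413) were lower in the TM arms. With 1 of the libraries left out in turn, DDI2 and EDEM1 were each lost in 10 of 13 fits (adjusted p up to 0.159 and 0.128), and NFE2L1 in 6 of 12 (up to 0.0885). Without AMD3100 replicate 1 of HCC1937 NFE2L1 differed by 0.55 and passed (adjusted p = 0.00999). With the correction for length DDI2 (-0.76) and NFE2L1 (0.62) were lost as well, while SEL1L in the AMD3100 arms (0.85, adjusted p = 0.0315) and NGLY1 in the TM arms (0.62, adjusted p = 0.0469) passed.

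**Figure D5:**
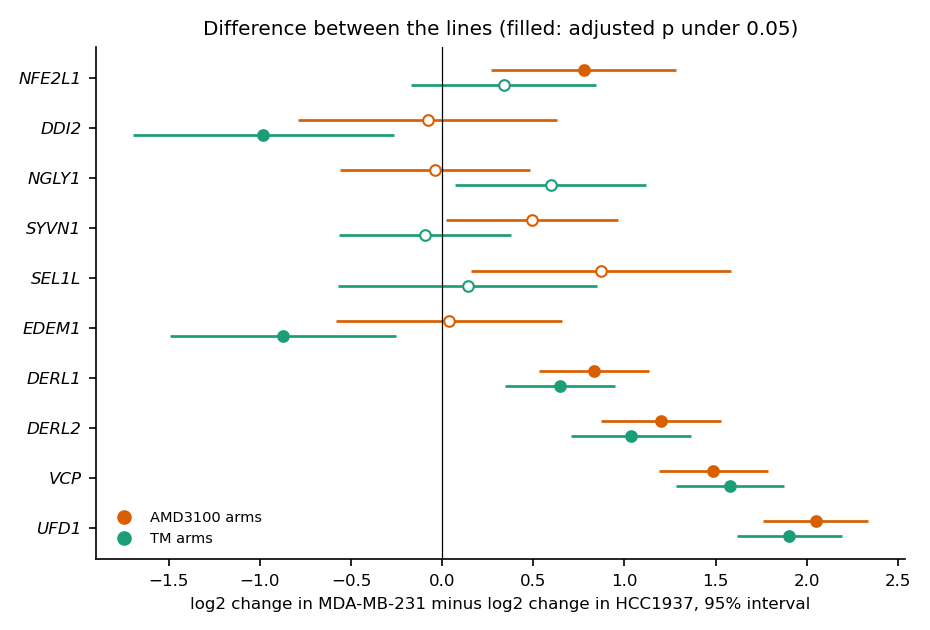
Log2 change in MDA-MB-231 minus log2 change in HCC1937 for each of the 10 genes with its 95% interval, in AMD3100 arms (orange) and TM arms (green), each against the vehicle of its line; filled points passed at an adjusted p under 0.05. UFD1, VCP, DERL2 and DERL1 lie right of 0 in both arms, NFE2L1 passed in the AMD3100 arms, and DDI2 and EDEM1 lie left of 0 in the TM arms.

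The genes whose log2 CPM followed NFE2L1 most closely over the 18 human libraries, after the vehicle mean of each line was subtracted, were SMG5 (Pearson r = 0.993), RHOC (0.988), MAP2K7 (0.987), PPP1R18 (0.987) and ACD (0.987), of 8703 genes with 10 CPM or more. Without AMD3100 replicate 1 of HCC1937, over 17 libraries, they were SMG5 (0.989), GNA11 (0.989), RHOC (0.986), VAT1 (0.986) and MAFK (0.985), the last a small MAF partner of NFE2L1. The 6 bortezomib libraries and the library that stood apart carry much of the range, so these values are a description. Over the same 18 libraries r with NFE2L1 was 0.808 for UFD1, 0.804 for VCP, 0.801 for DERL1, 0.797 for DERL2, 0.789 for SYVN1 and 0.434 for SEL1L, and -0.148 for EDEM1, -0.228 for NGLY1 and -0.546 for DDI2. Among the 8703 genes UFD1 ranked 1319, VCP 1352, DERL1 1370, DERL2 1403 and SYVN1 1461, so many other genes followed NFE2L1 more closely. Over the 17 libraries r was 0.901 for DERL1, 0.882 for UFD1, 0.856 for VCP, 0.831 for DERL2, 0.655 for SYVN1, 0.379 for SEL1L and 0.017 for NGLY1, and -0.649 for EDEM1 and -0.766 for DDI2. DERL1 then ranked 646, UFD1 848, VCP 1097, DERL2 1302 and SYVN1 2443. Over the 9 mouse libraries B4galt2 (0.963), Stk35 (0.936), Arhgap35 (0.927), Pcnx (0.924) and Frmd4a (0.923) were closest to Nfe2l1, of 10223 genes.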

How the data were processed

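The measurements are gene-level read counts deposited by the authors, 1 table for each dataset with 9 library columns, and 0 columns were left over. Per the submitters' processing notes, the tools were featureCounts 2.0.1 and MultiQC 1.11 and the builds GRCh38 and GRCm38; aligner, annotation and strand setting are not given in the sources used here. Libraries were poly A enriched and read as 150-base pairs. From the counts, each dataset was filtered with filterByExpr, scaled by TMM and fitted over its 3 groups with edgeR 4.0.16 (quasi-likelihood test, limma 3.58.1, R 4.3.3), with Benjamini-Hochberg adjustment over all tested genes and a threshold of 0.05. The difference between lines was an interaction term over both human datasets. The fit was tested on simulated data. All 10 genes were tested in each comparison, and the text gives those that passed or did not overlap and ranges or a part of the others. From each related list it names the genes of smallest p among those that passed, at most 2 per comparison, and some are not reported here. The genes and lists were chosen with earlier results of these data known. Alternatives were other scaling, no low-count filter, a replicate block, only the compared groups, DESeq2 1.42.0 and leaving out each library. A length correction in 20 bins was added after seeing the data. One 4T1 vehicle library is labelled as MDA-MB-231 in its characteristics but titled 4T1, and was used as 4T1. Levels per length use the deposited gene lengths. Same-numbered replicates did not deviate together in every pair (correlations -0.468 to 0.597), so the main fits have no block.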

Additional observations from a re-analysis of the deposited data

Results flagged for a closer look

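The following results drew attention because the change in MDA-MB-231 under bortezomib with a partner differed, by an interaction test, from the change in HCC1937 under the partner without bortezomib. In the AMD3100 arms the log2 differences were 0.7773 for NFE2L1, 1.488 for VCP, 0.833 for DERL1, 1.2 for DERL2 and 2.049 for UFD1. In the TM arms they were -0.9825 for DDI2, 1.579 for VCP, -0.874 for EDEM1, 0.6478 for DERL1, 1.035 for DERL2 and 1.903 for UFD1. Line and bortezomib cannot be told apart here.

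In another 4 cases all libraries of the 4T1 arm lay on one side of the vehicle mean and all those of the MDA-MB-231 arm on the other side of theirs, and this difference was not tested. Libraries overlapped vehicle libraries for Sel1l with AMD3100, for Edem1 in both arms and for EDEM1 with AMD3100. With AMD3100 the log2 changes were -0.0658 for Sel1l in 4T1 and 0.653 for SEL1L in MDA-MB-231, 0.2898 for Edem1 and -0.319 for EDEM1, and -0.2766 for Derl1 and 0.8512 for DERL1. With TM they were 0.4111 for Edem1 and -0.6606 for EDEM1. None of the 4T1 changes passed the test.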

How the results depend on the processing

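Of 1410 single-gene values under alternatives, 1226 kept their direction and side of the threshold, 61 were no longer called, 40 were newly called, 1 reversed, and 82 were called in neither fit and had another sign. In MDA-MB-231 against vehicle, 0 of 240 values were lost and 6 were newly called, all of them SEL1L with AMD3100. The limits lie in HCC1937, where the calls depend on AMD3100 replicate 1, and in 3 libraries per group. Unless stated, the cause of a change was not tested.

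For TM against vehicle in HCC1937, 1 of the 10 genes and 1376 genes in all were called. Without the low-count filter 0 of the 10 were called, with the replicate block 0 (718 in all), with only the compared groups 9 (8336) and by DESeq2 3 (2668). Leaving out 1 library gave 0 to 9 of the 10 and 406 to 8318 in all, the highest without AMD3100 replicate 1. For AMD3100 against TM, 3 and 1599 were called, with the replicate block 0 (725), with only the compared groups 0 (252), by DESeq2 5 (3205), and without 1 library 0 to 8 (373 to 7442, the highest again without AMD3100 replicate 1). For AMD3100 against vehicle 0 genes were called, without the filter 161, by DESeq2 39, with the length correction 4, and without 1 library 0 to 1661 (0 to 2 of the 10). NFE2L1 in that comparison was at -0.0466, with a range of -0.2029 to 0.1957 when 1 library was left out, and the upper value, without AMD3100 replicate 1, passed in the other direction.

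AMD3100 against TM in MDA-MB-231 gave 0 genes, without the filter 177, by DESeq2 70, and without 1 library 0 to 183. In 4T1 AMD3100 against vehicle gave 1 gene with only the compared groups, 17 by DESeq2 and 0 to 1 without 1 library, TM against vehicle 3 by DESeq2 and 0 to 1, and AMD3100 against TM 6 by DESeq2. For the difference between lines in the TM arms, 4674 genes became 3706 to 7382 without 1 library. With the replicate block DDI2 (-0.95), EDEM1 (-0.87) and, in the AMD3100 arms, NFE2L1 (0.81) no longer passed in the difference between lines. Same-numbered samples share a number only.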
